A study of Homo sapiens and Mus musculus with 12 samples.

Results

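Ehmt2, Ehmt1, Wiz and Zfp644 encode the core of the G9a/GLP complex, and their 8 entries (4 mouse genes and their 4 human counterparts EHMT2, EHMT1, WIZ and ZNF644) are described here among 40325 genes listed in the RNA-seq count tables of the series, 22021 of mouse and 18304 of human. They were chosen by gene name as members of the complex. All 8 entries were listed and all passed the filter on low counts.

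The mouse libraries came from NK cells (CD3- NK1.1+) sorted from the spleens of C57BL/6J mice aged 8 to 12 weeks. WT mice were Ehmt2 flox/flox, with loxP sites around part of Ehmt2 on both chromosomes and no Cre, and KO mice were Ehmt2 flox/flox; Ncr1-iCre, in which Cre is made from Ncr1, the gene of the receptor NKp46. Both groups thus carry the floxed alleles, and deletion is limited to cells that have switched on Ncr1. The human libraries came from NK92MI, an established line of human NK cells that makes its own interleukin-2 and is therefore a model of proliferating cells of a single origin. NK92MI cells received BIX-01294 (BIX), an inhibitor of the methyltransferase activity of G9a and GLP, or DMSO, its solvent. NK92MI assays of the study used 0.25 µM for 5 days, while dose and time for the RNA libraries are not given in the labels. Each of the 4 groups held 3 libraries. The labels do not say whether libraries of a group came from separate animals or cultures, so that p-values measure only the spread between these libraries, which may be technical.

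G9a (encoded by Ehmt2) and GLP (Ehmt1) are SET domain enzymes that add mono- and dimethyl marks to lysine 9 of histone H3 and act mainly as a heterodimer. WIZ and ZNF644 (Zfp644 in the mouse) are zinc finger proteins that bind the dimer, hold it together or bring it to its sites on DNA. The mark that they place, H3K9me2, covers broad stretches of silent chromatin, and in lymphocytes it is known for keeping genes of other lineages and germ-line genes silent.

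The changes described below concern transcripts of EHMT2, WIZ and ZNF644 in NK92MI cells, and a promoter of each of these members is shown to place the start of the gene. The sequences are RefSeq promoters of GRCh38.p14, written on the strand of the gene from 250 bases before to 50 bases after the start, and capitals mark matches, on either strand, to 6 motifs, namely CCAAT (the CCAAT box), GGGCGG (the GC box), CCGGAAG (ETS), TTTCCCGC (E2F), CACGTG (the E-box) and the palindrome of NRF1. The EHMT2 promoter lies at chr6:31897649-31897948 and is 66.7% GC. The WIZ promoter shown, of 3 in the table, lies at chr19:15449907-15450206 and is 77% GC. The ZNF644 promoter shown, of 2, lies at chr1:91021986-91022285 and is 69.7% GC. All 3 genes are on the minus strand.
EHMT2 promoter: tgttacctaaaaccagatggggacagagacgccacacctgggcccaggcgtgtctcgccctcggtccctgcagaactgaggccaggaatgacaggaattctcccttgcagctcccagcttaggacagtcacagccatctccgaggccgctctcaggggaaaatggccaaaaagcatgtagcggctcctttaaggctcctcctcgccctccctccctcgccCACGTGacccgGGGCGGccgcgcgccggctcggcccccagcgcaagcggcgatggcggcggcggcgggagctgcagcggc
WIZ promoter: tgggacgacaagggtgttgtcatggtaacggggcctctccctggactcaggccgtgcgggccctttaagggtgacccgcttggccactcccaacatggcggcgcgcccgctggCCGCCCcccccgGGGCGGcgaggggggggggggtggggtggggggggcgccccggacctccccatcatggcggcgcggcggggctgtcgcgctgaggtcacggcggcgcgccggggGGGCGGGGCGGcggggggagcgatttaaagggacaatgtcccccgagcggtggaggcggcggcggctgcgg
ZNF644 promoter: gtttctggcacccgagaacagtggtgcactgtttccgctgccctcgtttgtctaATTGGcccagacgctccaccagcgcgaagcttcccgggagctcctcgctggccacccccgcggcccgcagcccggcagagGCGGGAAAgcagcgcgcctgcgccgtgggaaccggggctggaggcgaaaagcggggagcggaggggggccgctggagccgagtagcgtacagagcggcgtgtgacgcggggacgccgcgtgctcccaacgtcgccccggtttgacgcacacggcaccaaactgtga

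The EHMT2 promoter held 1 E-box, found in 7.26% of 35116 human promoters of this length, and 1 GC box, found in 45%. The WIZ promoter held 4 GC boxes, a pair of which overlap, and no other motif searched. The ZNF644 promoter held 1 CCAAT box (34.6% of all promoters) and 1 E2F match (1.63%). None of these 3 windows held the ETS letters (10.3% of all promoters) or the NRF1 letters (1.24%), which says only that those letters are not in these windows. The other ZNF644 promoter, whose lowest coordinate is 91021434, held 2 GC boxes and no other motif searched, and the other WIZ promoters held 2 GC boxes with 1 CCAAT box (15433261) and 6 GC boxes (15432712), so that the matches differ between promoters of the same gene. The EHMT1 promoter, at chr9:137618755-137619054 on the plus strand, held 4 GC boxes. A match describes the letters only, and neither binding nor activity of these windows was measured.

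EHMT2 is also among the genes for which the study lists RT-qPCR primers. The paper reports its EHMT2 assay for human NK cells with and without cytokine stimulation. The primers are given to place the assay on the transcript, with the bases of the forward primer that lie in exon 7 in capitals.
EHMT2 forward primer: ctgTCAGAGGAGTTAGGTTCTGC
EHMT2 reverse primer: cttgctgtcggagtccacg

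The forward primer joins exons 6 and 7 of 28 of the annotated transcript matched, across an intron, at chr6:31892543-31892696, and the reverse primer lies within exon 7 at chr6:31892407-31892425. The product spans 159 bases, and both sites are present in 5 of 12 annotated EHMT2 transcripts. The counts below sum all transcripts of a gene and do not separate them.

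Ehmt2 lies at chr17:34898469-34914052 on the plus strand of GRCm38, and Wiz on the same chromosome at chr17:32354055-32389439 on the minus strand. Ehmt1 lies at chr2:24789928-24919614 and Zfp644 at chr5:106616739-106697287, both on the minus strand. On GRCh38 the genes lie at chr6:31879759-31897698 (EHMT2, minus strand), chr9:137618992-137870016 (EHMT1, plus strand), chr19:15419978-15449956 (WIZ, minus strand) and chr1:90915298-91022272 (ZNF644, minus strand). An antisense gene, EHMT2-AS1, shares 592 exon bases with EHMT2, the antisense Gm26858 shares 2040 with Wiz, and genes on the opposite strand share 313 and 580 with EHMT1. The strand setting of the counting is not given in the sources used here, so reads of these overlaps cannot be assigned to a strand.

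Library totals were 25891680 to 37438868 counts in the mouse and 16579469 to 17165446 in NK92MI. Libraries differed from each other by more than sampling noise. NK genes were measured in both systems, but the mouse groups differed in the makeup of markers. The summed level of 12 NK markers was 5687, 9546 and 5965 CPM (counts scaled to a common library size) in WT and 10894, 12448 and 12307 CPM in KO libraries. The summed level of 38 markers of B cells, T cells, myeloid, erythroid and other cells was 8403, 4695 and 8497 CPM in WT and 4257, 2694 and 3049 CPM in KO libraries, and none of these markers was at 0 in every library. Of the NK list 6 of 12 were called higher in KO, beside 4.44% of all genes tested. Among 37 tested markers of other cells 11 were called lower, beside 7.43% of all genes tested, and 1 higher (Cd3g). By RT-qPCR, the paper reports higher RNA of Tbx21, Gzmb, Il2rb and Prf1, all on the NK list, in KO NK cells. The NK sum cannot be read as cell makeup alone, since neither these counts nor bulk RT-qPCR separate makeup from RNA per cell. Scaling to this list, used below, takes out differences of both kinds. The part of each was not tested. In NK92MI the NK list held 12 markers, with NCAM1 and KLRC1 in place of Klrb1c and Itga2. They summed to 5947 to 6277 CPM with DMSO and 7498 to 9157 CPM with BIX. Of the 12 genes 5 were called higher and 5 lower, beside 18.4% of all genes tested in each direction. Markers of other cells, of which 17 were listed and 5 tested, summed to 554 to 566 CPM with DMSO and 575 to 646 CPM with BIX. Most of this sum was 1 gene, CD3E, at a mean of 493 CPM with DMSO and 552 CPM with BIX (not called). The part of the marker differences in the changes with BIX was not tested. The genotype label of the KO libraries names Ezh2, whereas their titles name EHMT2, and the grouping follows the titles.

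Among the 4 mouse members, 1 was called at an adjusted p under 0.05, against 11.9% of all 13189 genes tested, and it was Ehmt2, the targeted gene (edgeR's quasi-likelihood test, Benjamini-Hochberg adjustment over all genes tested). The WT libraries held Ehmt2 at 275, 284 and 285 CPM, and the KO libraries at 171, 143 and 137 CPM. All KO libraries were below all WT libraries, a separation in this direction that 19.3% of all genes tested showed. The log2 fold change was −0.91 (standard error 0.10, 95% interval −1.14 to −0.67, edgeR adjusted p = 0.0162), which leaves 53.3% of the WT level (interval 45.4% to 62.7%).

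Ehmt2 transcripts remained in all 3 KO libraries. For splenic NK cells of KO mice, the paper reports by Western blot that Ehmt2 was completely deleted and H3K9me2 reduced. The RNA level given here is thus not a measure of the protein left. Counts per gene do not show which exons the remaining reads cover, and in bulk samples fewer cells of a type and less RNA per cell cannot be told apart. Within KO, replicate 1 had both the highest summed level of other-cell markers (4257 CPM, against 2694 and 3049) and the highest Ehmt2 level (171 CPM, against 143 and 137). Ncr1, whose promoter drives Cre, was at 332.9, 542.4 and 333.4 CPM in WT and 454.9, 582.5 and 576.2 CPM in KO libraries (log2 fold change 0.42, edgeR adjusted p = 0.185). The part of the marker differences in the Ehmt2 change was not tested. The call of Ehmt2 was lost without KO replicate 2 (−0.87, edgeR adjusted p = 0.0986), without KO replicate 3 (−0.84, edgeR adjusted p = 0.121) and without WT replicate 3 (−0.90, edgeR adjusted p = 0.0587).

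The other 3 mouse members did not pass the test, and in each of them the groups overlapped. Ehmt1, which encodes the catalytic partner GLP, was at 62.1, 66.5 and 59.1 CPM in WT and at 58.2, 71.8 and 69.2 CPM in KO libraries. The lowest of these 6 values and the highest were both KO libraries. Its log2 fold change was 0.09 (standard error 0.10, 95% interval −0.15 to 0.33, edgeR adjusted p = 0.572), so that the interval reaches from 89.9% to 125% of the WT level.

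Wiz, the zinc finger subunit that joins the dimer, was at 89.3, 99 and 86.4 CPM in WT and at 79.9, 103 and 94.5 CPM in KO libraries. Here too KO libraries were at both ends of the range. Its change was 0.02 on the log2 scale (standard error 0.11, 95% interval −0.24 to 0.27, edgeR adjusted p = 0.931).

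Zfp644, which encodes the other zinc finger partner, was at 28.4, 31.2 and 32.4 CPM in WT and at 35.4, 31.6 and 37.6 CPM in KO libraries. KO replicate 2 lay between WT libraries, and the other KO libraries lay above all of them. Its change was 0.19 on the log2 scale (standard error 0.10, 95% interval −0.05 to 0.42, edgeR adjusted p = 0.226). These intervals bound the changes of the 3 partners and do not show that their levels were alike in the groups. When libraries were scaled to the NK marker list, which moved the median gene to −0.77, the values of the 3 genes changed sign to −0.69 (Ehmt1), −0.76 (Wiz) and −0.59 (Zfp644), while with the shift of the median gene taken off they were 0.07, 0.01 and 0.18.

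**Figure D1:**
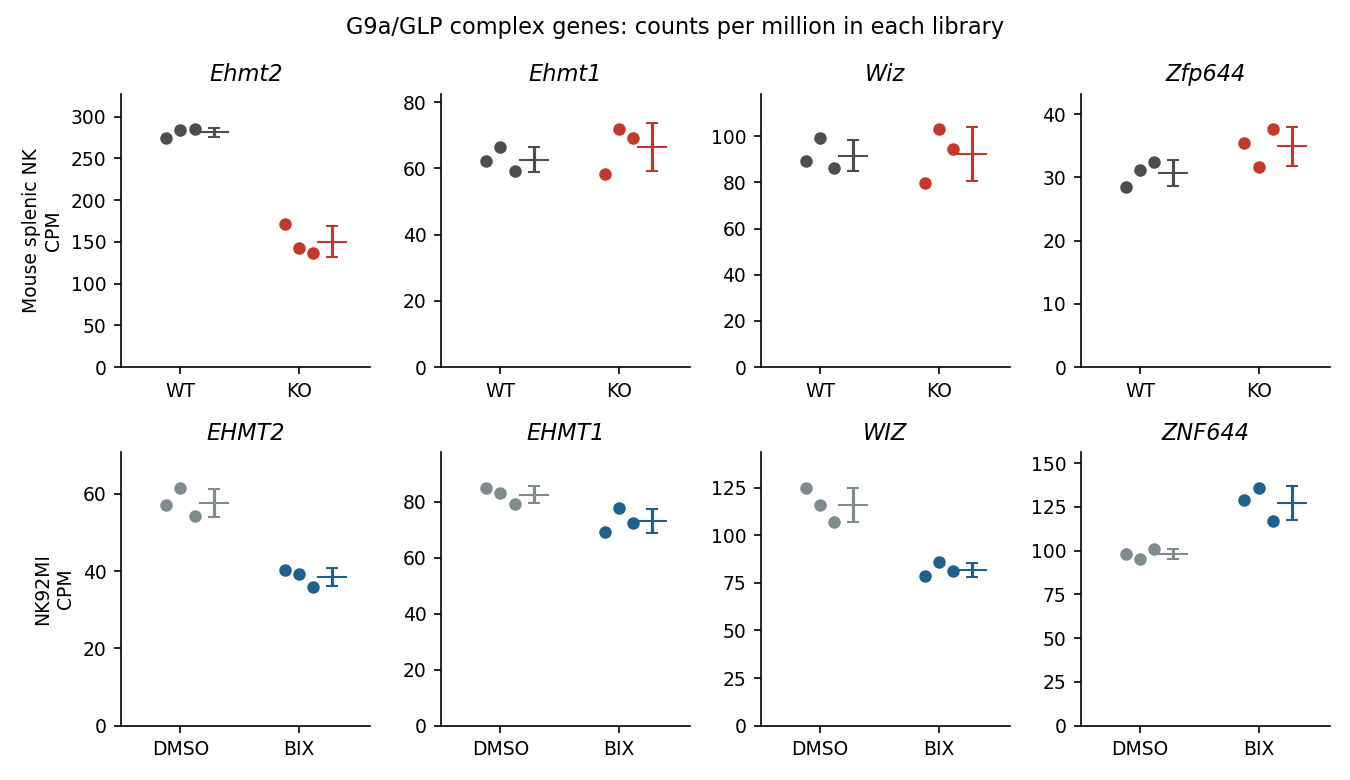
CPM (vertical axes from 0) of the 4 members in each library of mouse splenic NK cells (top) and NK92MI cells (bottom). Points are libraries and bars the mean and SD of 3 libraries; groups separate for Ehmt2 in the mouse and for all 4 members in NK92MI.

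In NK92MI cells 3 of the 4 members were called after BIX, against 36.9% of all 12727 genes tested. EHMT2, WIZ and ZNF644 passed the test, the former pair lower and ZNF644 higher. The groups of libraries did not overlap in any of the 4 members, 3 of which were lower (23.9% of all genes tested) and 1 higher (24.1%). At the study's stricter thresholds, an adjusted p under 0.01 and a log2 change over 0.5, 2 members passed, EHMT2 and WIZ. Both were lower, against 11.7% of all genes (5.43% lower and 6.24% higher). WIZ, at −0.50, lay at the cutoff of the log2 change. It fell short of this cutoff without BIX replicate 1 (−0.47), BIX replicate 3 (−0.49) or control library CON-1 (−0.45).

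EHMT2 was at 57.1, 61.6 and 54.3 CPM with DMSO and at 40.4, 39.3 and 35.8 CPM with BIX. All BIX libraries were below all DMSO libraries. The log2 fold change was −0.58 (standard error 0.08, 95% interval −0.76 to −0.41, edgeR adjusted p = 0.000101), or 66.8% of the DMSO level (interval 59.2% to 75.4%). This value concerns the messenger RNA of the compound's target and not its enzyme activity.

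WIZ was at 125, 116 and 107 CPM with DMSO and at 78.5, 86 and 81.1 CPM with BIX, again without overlap. WIZ had a log2 value of −0.50 against DMSO (standard error 0.07, 95% interval −0.66 to −0.34, edgeR adjusted p = 0.000147), or 70.6% of the DMSO level (interval 63.3% to 78.8%).

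ZNF644 was at 98.3, 95.1 and 101 CPM with DMSO and at 129, 136 and 117 CPM with BIX, so that every treated library was above every control library. ZNF644 rose by 0.37 on the log2 scale (standard error 0.07, 95% interval 0.22 to 0.52, edgeR adjusted p = 0.00104), or 129% of the DMSO level (interval 117% to 144%). Of the 4 members it alone rose with BIX.

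EHMT1 was at 85.1, 83.3 and 79.2 CPM with DMSO and at 69.3, 77.8 and 72.3 CPM with BIX. The groups did not overlap, yet the gap between them was narrow, from 77.8 to 79.2 CPM. The log2 fold change was −0.17 (standard error 0.07, 95% interval −0.33 to −0.02, edgeR adjusted p = 0.0664), which is not called. Without BIX replicate 2, the treated library with the highest EHMT1 level, it was −0.22 (edgeR adjusted p = 0.0234). Leaving out any other single library left EHMT1 not called (edgeR adjusted p 0.086 to 0.279).

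**Figure D2:**
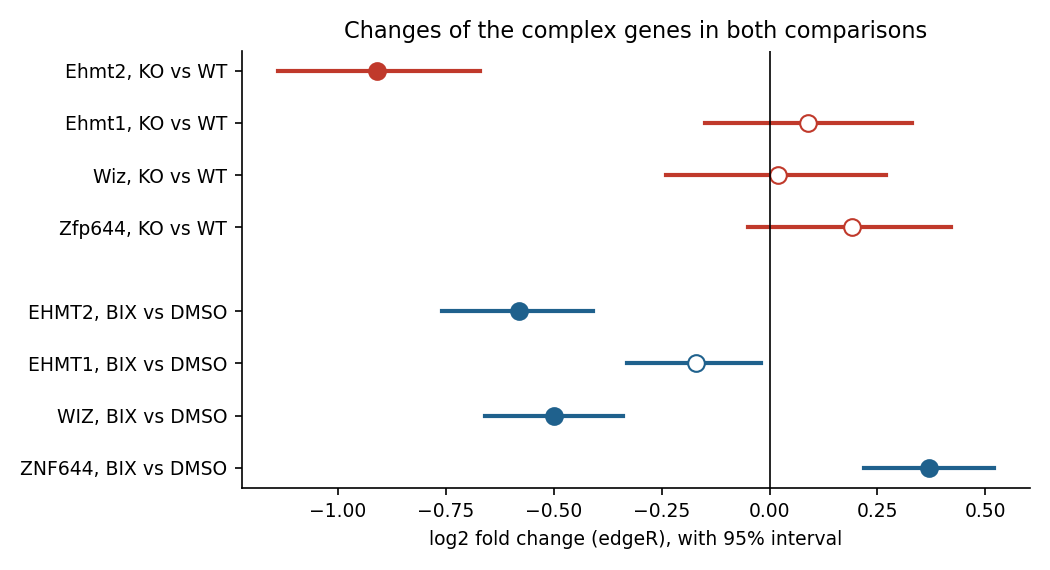
Log2 fold change (horizontal axis) of each member with its 95% interval from edgeR, for KO against WT in mouse NK cells and BIX against DMSO in NK92MI cells. Filled points passed an adjusted p under 0.05, which holds for Ehmt2 in the mouse and for EHMT2, WIZ and ZNF644 in NK92MI.

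The balance of the members within a library does not depend on the scaling between libraries, and it was compared as the ratio of EHMT2 (or Ehmt2) counts to those of each other member. Ehmt2 to Ehmt1 was 4.43, 4.28 and 4.83 in WT and 2.93, 1.99 and 1.98 in KO libraries, a difference of the mean log2 ratio of −1.0. Ehmt2 to Wiz was 3.08, 2.87 and 3.3 in WT and 2.14, 1.38 and 1.45 in KO libraries, a difference of −0.92. Ehmt2 to Zfp644 was 9.66, 9.12 and 8.82 in WT and 4.82, 4.51 and 3.64 in KO libraries, a difference of −1.10. In each of these ratios KO and WT libraries were apart, and in each the exact permutation test gave p = 0.1, the smallest that 3 against 3 allow. KO replicate 1 had the highest of the KO ratios in all 3.

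In NK92MI the balance shifted against EHMT1 and ZNF644 but not measurably against WIZ. EHMT2 to EHMT1 was 0.671, 0.739 and 0.686 with DMSO and 0.583, 0.505 and 0.496 with BIX (log2 difference −0.41). EHMT2 to ZNF644 was 0.581, 0.647 and 0.536 with DMSO and 0.314, 0.289 and 0.307 with BIX (log2 difference −0.95). Both ratios separated the groups (exact permutation p = 0.1 each, the smallest possible). EHMT2 to WIZ was 0.456, 0.53 and 0.509 with DMSO and 0.515, 0.457 and 0.442 with BIX, a log2 difference of −0.08 with overlapping groups (exact permutation p = 0.5). These ratios compare a pair of genes between groups and not levels between genes, since the genes differ in length.

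**Figure D3:**
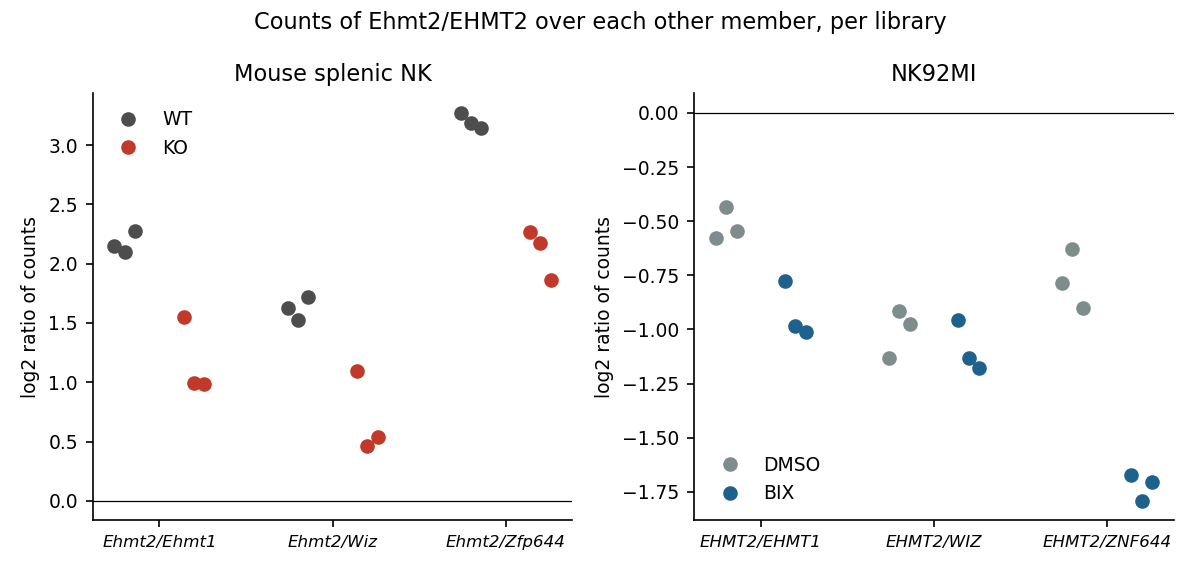
Log2 ratio of the counts of Ehmt2 or EHMT2 to those of each other member (vertical axes) in each library, by group. KO and WT libraries separate in all 3 mouse ratios, with log2 differences of −0.92 to −1.10, while BIX and DMSO libraries overlap for EHMT2 to WIZ.

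Per kilobase of exon, the members were present at unequal levels, and the order differed between the mouse NK cells and NK92MI. In WT libraries Ehmt2 was highest at 51.3 ± 1.08 CPM per kb (SD, n = 3), followed by Wiz at 9.91 ± 0.711, Ehmt1 at 7.71 ± 0.455 and Zfp644 at 2.19 ± 0.144, with no overlap between neighbours in this order. In KO libraries Ehmt2 was still highest at 27.3 ± 3.29 CPM per kb. Wiz (10 ± 1.27) and Ehmt1 (8.18 ± 0.89) then overlapped, with ranges of 8.65 to 11.2 and 7.17 to 8.85, and Zfp644 stayed lowest at 2.49 ± 0.217.

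In DMSO-treated NK92MI cells ZNF644 was highest at 12.9 ± 0.41 CPM per kb, with WIZ at 11.6 ± 0.922, EHMT2 at 7.9 ± 0.501 and EHMT1 at 3.72 ± 0.138. The highest WIZ library (CON-1) and the lowest ZNF644 library (CON-2) were both at 12.5 CPM per kb, so that the ranges of these neighbours meet. Within each DMSO library ZNF644 was above WIZ. With BIX the levels were 16.7 ± 1.27 for ZNF644, 8.16 ± 0.38 for WIZ, 5.28 ± 0.327 for EHMT2 and 3.3 ± 0.193 for EHMT1. The human order depends on the length used: per kb of the longest protein-coding transcript, chosen after the data were seen, the DMSO means were 17.2 (ZNF644), 16.2 (EHMT1), 14 (EHMT2) and 12.9 (WIZ) CPM per kb. The order in the mouse was the same with either length, but the overlap of Wiz and Ehmt1 in KO was not. Per kb of the longest protein-coding transcript their KO ranges were 15.8 to 20.4 and 9.78 to 12.1, without overlap.

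**Figure D4:**
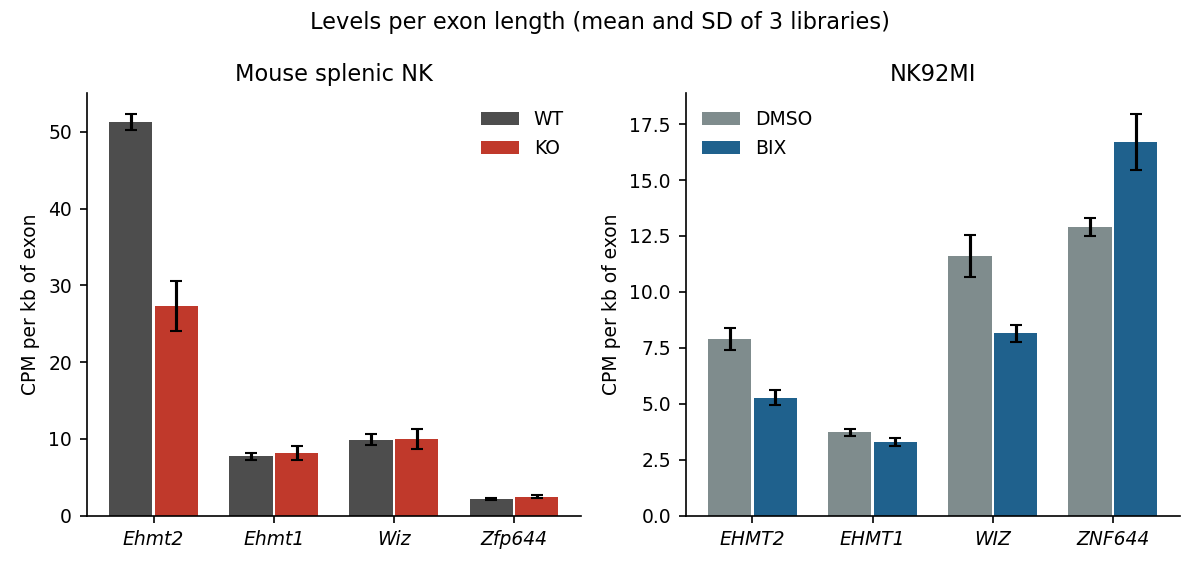
CPM per kb of exon (vertical axes from 0) of each member, as mean and SD of 3 libraries, in WT and KO mouse NK cells and in DMSO- and BIX-treated NK92MI cells. Ehmt2 was the highest member in the mouse at 51.3 (WT) and 27.3 (KO), and ZNF644 in NK92MI at 12.9 (DMSO) and 16.7 (BIX).

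The summed level of the catalytic pair was also compared. Ehmt2 and Ehmt1 together were at 59 ± 1.18 CPM per kb (SD, n = 3) in WT and 35.5 ± 2.47 in KO libraries, 60.1% of WT. The ranges were 57.7 to 60 and 33.5 to 38.3 (exact permutation p = 0.1, the smallest possible). The Ehmt2 part of this sum was 86.9% in WT and 76.8% in KO libraries. EHMT2 and EHMT1 together were at 11.6 ± 0.591 CPM per kb with DMSO and 8.57 ± 0.366 with BIX, 73.8% of DMSO, and the part of EHMT2 was 68% and 61.5%. With the longest protein-coding transcript as length, the human sum with BIX was 78.5% of DMSO and the EHMT2 part 46.3% and 39.4%.

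The effects in the mouse and in NK92MI were set against each other gene by gene, although organism, cell and kind of intervention all differ between them. For Wiz and WIZ the KO effect exceeded the BIX effect by 0.51 on the log2 scale, with an exact permutation p of 0.05 and 0.12 after adjustment over the 4 pairs, from 400 arrangements under a null of no effect in either comparison. The other pairs differed by −0.33 (Ehmt2), 0.26 (Ehmt1) and −0.18 (Zfp644), with adjusted exact p of 0.56, 0.12 and 0.52. Where a gene changed in both comparisons, as Ehmt2 and EHMT2 did, shuffled labels give differences larger than the one observed. The exact p of that pair therefore cannot show whether its effects differ. An interaction term in limma-voom over 10360 genes shared by symbol, chosen after the data were seen, gave 0.50 (95% interval 0.22 to 0.78, limma adjusted p = 0.0144), where 24.5% of all genes were called. For Ehmt2 and EHMT2 the interaction was −0.34 (interval −0.61 to −0.07, limma adjusted p = 0.062), for Ehmt1 and EHMT1 0.25 (interval −0.00 to 0.50, limma adjusted p = 0.141) and for Zfp644 and ZNF644 −0.20 (interval −0.47 to 0.08, limma adjusted p = 0.285).

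Across the 6 mouse libraries, log2 CPM of Ehmt1 and Wiz went together (Pearson r = 0.93), while Ehmt2 had r = −0.52 with Ehmt1, −0.19 with Wiz and −0.68 with Zfp644. Across the 6 NK92MI libraries EHMT2 had r = 0.94 with WIZ, 0.83 with EHMT1 and −0.88 with ZNF644. These are descriptions over libraries that share their group, so that a difference between groups can set r. By the same measure, over 9132 mouse genes with a mean of at least 10 CPM, the genes most like Ehmt2 were Rtcb (r = 0.9943), Csnk1e (0.9932) and Nav1 (0.9910). Over 8556 human genes, those most like EHMT2 were PITPNM1 (0.9990), NKAPD1 (0.9984) and DPP9 (0.9982), while those most like WIZ were DHCR7, SYMPK and BMS1, those most like EHMT1 were GALK2, MAP3K4 and PRR12, and those most like ZNF644 were KLHL28 (0.9996), SNRNP48 and WIPF2. For Zfp644 they were Gpbp1, A630033H20Rik and Angel2.

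The chromosomal neighbours of the members were examined within 3 tested genes on each side. Of the 6 neighbours of Ehmt2, 0 were called by edgeR, 2 had an unadjusted p under 0.05, and DESeq2 called 2 and limma-voom 0. Nelfe, a subunit of the negative elongation factor, had a log2 fold change of −0.35 (edgeR adjusted p = 0.0562) and C2, a complement gene, −1.61 (edgeR adjusted p = 0.0682). The others were Zbtb12 (−0.27), the sialidase gene Neu1 (−0.13) and the heat shock genes Hspa1b (1.44) and Hspa1a (1.01), near-identical copies whose counts are uncertain. Around EHMT2, the valyl-tRNA synthetase gene VARS1 (−0.62, edgeR adjusted p = 1.1e-05) and SKIC2, of the SKI complex of RNA decay (−0.69, edgeR adjusted p = 4.18e-05), fell with BIX, while the sialidase gene NEU1 rose (0.44, edgeR adjusted p = 0.00134) and NELFE had a value of −0.02 (not called). LSM2 (0.04) and DXO (−0.20) did not pass. Around WIZ, 3 of 6 neighbours were called (RASAL3, TPM4 and RAB8A, all lower), as were 3 of 6 around EHMT2 and 3 of 6 around ZNF644 (ZNF326 and TGFBR3 higher, CDC7 lower), beside 36.9% of all genes, and around EHMT1 0 of 3 by edgeR, DESeq2 and limma-voom, with 0 at an unadjusted p under 0.05. Among mouse neighbours 1 of 6 was called by edgeR and limma-voom around Wiz (Pglyrp2, higher, beside 11.9% of all genes), where 4 had an unadjusted p under 0.05 and DESeq2 called 4, and 0 of 6 around each of Ehmt1 and Zfp644 by edgeR, where 3 and 2 had an unadjusted p under 0.05, limma-voom called 0, and DESeq2 called 2 and 0. These names were chosen after their values were seen.

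Proteins known to bind the G9a/GLP complex or to be methylated by it formed a list of 19 tested mouse genes, of which 2 were called higher (4.44% of all genes) and 2 lower (7.43%), with a median log2 fold change of 0.12 against 0.01 for all genes. Uhrf1, which guides maintenance DNA methylation (−0.56, edgeR adjusted p = 0.0269), and the corepressor Ctbp2 (−0.43, edgeR adjusted p = 0.0468) fell in KO. The repressor Gfi1 (0.86, edgeR adjusted p = 0.0327) and the zinc finger gene Zfp518a (0.79, edgeR adjusted p = 0.0329) rose. Without KO replicate 2 or without KO replicate 3, edgeR called 0 genes of the whole mouse table (3208 and 3287 at an unadjusted p under 0.05), so that every mouse call on these lists rests on both libraries.

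Of 17 tested human genes of this list 4 were called higher and 5 lower with BIX (18.4% of all genes in each direction), and the median was 0.02 against −0.01 for all genes. DNMT1, the maintenance DNA methyltransferase (−0.43, edgeR adjusted p = 0.000211), the corepressor CTBP1 (−0.39, edgeR adjusted p = 0.00274) and the deacetylase HDAC2 (−0.27, edgeR adjusted p = 0.00376) fell. PRDM1, the repressor Blimp-1 (0.48, edgeR adjusted p = 0.000212), REST, a repressor of neuronal genes (0.31, edgeR adjusted p = 0.00424), and GFI1 (0.28, edgeR adjusted p = 0.00718) rose.

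The E2F6 and PRC1.6 list, a Polycomb complex that can hold G9a and GLP, had 0 calls among 11 genes in the mouse by edgeR, DESeq2 and limma-voom, with 1 at an unadjusted p under 0.05 and a median of 0.03. In NK92MI 4 of 11 rose and 1 fell, beside 18.4% of all genes in each direction, with a median of 0.17. RYBP (0.76, edgeR adjusted p = 1.41e-06) and its paralogue YAF2 (0.70, edgeR adjusted p = 1.03e-05), both Polycomb subunits, and MAX, a partner of MYC and MGA (0.34, edgeR adjusted p = 0.00311), rose. RING1, a ubiquitin ligase of the complex, fell (−0.40, edgeR adjusted p = 0.0093).

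The list of other writers of H3K9 methylation also held the cofactors Atf7ip and Trim28. In the mouse it had 0 calls among 6 genes by edgeR, DESeq2 and limma-voom, with 0 at an unadjusted p under 0.05. The median was −0.09. With BIX, 2 of 6 were called lower (18.4% of all genes), with a median of −0.12. The lower pair were both cofactors, ATF7IP, which stabilises SETDB1 (−0.47, edgeR adjusted p = 0.000727), and the corepressor TRIM28 (−0.35, edgeR adjusted p = 0.00115). The methyltransferase genes SETDB1, SETDB2, SUV39H1 and SUV39H2 were not called with BIX (edgeR adjusted p = 0.095, 0.715, 0.926 and 0.785).

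Of 11 erasers of H3K9 methylation, 1 was called higher in KO (Kdm3a, 0.40, edgeR adjusted p = 0.0452, beside 4.44% of all genes) and 0 lower, with a median of 0.12. With BIX, 3 of 11 rose and 2 fell (18.4% of all genes in each direction), with a median of 0.05. The demethylase KDM3A rose here too (0.33, edgeR adjusted p = 0.00118), as did KDM7A (0.29, edgeR adjusted p = 0.0272) and PHF2 (0.24, edgeR adjusted p = 0.0303), whereas KDM4B (−0.50, edgeR adjusted p = 0.00013) and KDM1A (−0.29, edgeR adjusted p = 0.00251) fell.

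**Figure D5:**
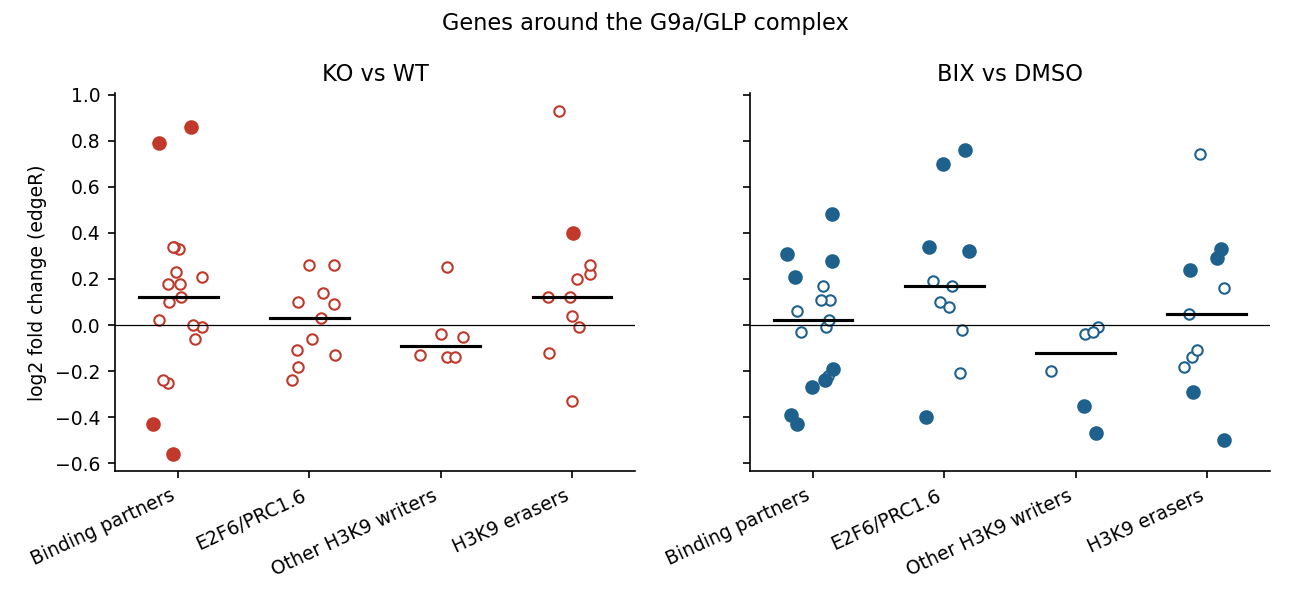
Log2 fold changes (vertical axis) of the tested genes of 4 lists around the complex in KO against WT and BIX against DMSO; filled points passed an adjusted p under 0.05 and lines are medians. In the mouse the medians lie between −0.09 and 0.12, and in NK92MI RYBP (0.76) and YAF2 (0.70) are the highest genes called.

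Germ-line genes known in other cells as targets of G9a/GLP silencing were tested in part, since most had few or no counts in the mouse. In the mouse 2 of 11 were tested and 0 were called by edgeR and limma-voom, with 1 at an unadjusted p under 0.05 and 1 called by DESeq2. The tested genes were Stag3 (−0.44, edgeR adjusted p = 0.32) and Smc1b (−2.08, edgeR adjusted p = 0.0622), both cohesin genes of meiosis, while Tex101, Mael, Sycp1 and Zscan4c had counts of 0 in every library. In NK92MI 4 of 9 were tested and 3 rose, beside 18.4% of all genes. The others, DAZL, TEX101, SLC25A31, MAEL and SYCP1, were not listed among the human genes, of which 0 had counts of 0 in every library. DDX4, a germ-cell RNA helicase, went from a mean of 4.65 to 11.9 CPM (1.35, edgeR adjusted p = 2.3e-05), STAG3 from 3.5 to 7.67 CPM (1.13, edgeR adjusted p = 0.000185) and SMC1B from 0.548 to 1.39 CPM (1.33, edgeR adjusted p = 0.019). SMC1B was near the low-count filter with DMSO (0.291 to 0.76 CPM, against 1.12 to 1.82 with BIX). Its entry into the test rested on the BIX libraries, so its call stands apart from those of DDX4 and STAG3. Smc1b was low in the mouse too (0.543 to 2.05 CPM in WT, 0.215 to 0.598 in KO). SYCP3, a gene of the meiotic chromosome axis, had a value of 0.71 (edgeR adjusted p = 0.128).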

How the data were processed

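RNA was measured by polyA RNA-seq in 6 mouse and 6 NK92MI libraries. The values are raw counts per gene symbol as deposited by the authors, with no normalization. Reads were trimmed with fastp 0.23.4, aligned with STAR 2.7.11b, allowing 2 mismatches, to GRCm38 or GRCh38, and counted with HTSeq 2.0.3, versions as in the submitters' processing notes. The annotation release and strand setting are not given in the sources used here. In the human table the control columns could not be linked to single DMSO samples, so they entered as a group.

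From the counts, TMM-normalized CPM were computed, and each species was fitted with edgeR 4.0.16 (R 4.3.3) by the quasi-likelihood test after filterByExpr. A gene was called when its p, adjusted after Benjamini and Hochberg, was under 0.05. The biological coefficient of variation was 18.2% in the mouse and 7.55% in NK92MI. For correlations a prior count of 2 was added before taking log2 CPM. Gene positions and exon lengths are from GENCODE M21 and 44, on the builds of the authors but not shown to be their release. Single values were compared by two-sided exact permutation tests. Alternatives were DESeq2 1.42.0, limma 3.58.1, other scalings and filters, a replicate block, the study's thresholds (adjusted p under 0.01 and a log2 change over 0.5) and leaving out each library. An interaction term and transcript length were added after seeing the data. Scripts were tested on simulated data.

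The members and lists were chosen with earlier results of these data known. The genes named are the members, up to 3 called genes in each direction of a list by adjusted p, the neighbours of Ehmt2 and EHMT2, and the 3 genes of highest r to each member, of which those of Ehmt1 and Wiz are not reported here.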

Additional observations from a re-analysis of the deposited data

Results flagged for a closer look

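The difference between the KO effect on Wiz and the BIX effect on WIZ was 0.50 on the log2 scale in an interaction fit (limma-voom, 95% interval 0.22 to 0.78, limma adjusted p = 0.0144 over 10360 genes). Wiz itself had a log2 fold change of 0.02 in KO NK cells and WIZ a value of −0.50 with BIX. The interaction fit was chosen after the data were seen. The exact permutation test, whose null is no effect in either comparison, gave a difference of 0.51 with an adjusted p of 0.12. Species, cell type and kind of intervention cannot be told apart in this difference.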

How the results depend on the processing

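EHMT2, WIZ and ZNF644 stayed below an adjusted p of 0.05 in all 15 alternative settings, with log2 fold changes of −0.73 to −0.53, −0.65 to −0.45 and 0.22 to 0.43 (largest adjusted p 0.00116, 0.00243 and 0.0423). Under the study's thresholds with the main edgeR fit Ehmt2 (−0.91) and ZNF644 (0.37) were not called. Ehmt2 passed them with DESeq2, the study's tool (−0.92, DESeq2 adjusted p = 1.29e-12), and with the replicate block (edgeR adjusted p = 0.00374). It also passed by edgeR with no filter (−0.90, edgeR adjusted p = 0.00735), with NK scaling (−1.68, edgeR adjusted p = 0.0012) and without WT replicate 2 (−0.90, edgeR adjusted p = 0.00289). In the other settings Ehmt2 did not pass them. Leaving out 1 library moved Ehmt2 between −1.01 and −0.84 (edgeR adjusted p 0.00289 to 0.121) and EHMT1 between −0.22 and −0.13, and Wiz changed sign, between −0.07 and 0.11 (−0.07 without KO replicate 2, −0.00 without WT replicate 1 and −0.03 without WT replicate 3). Scaling to the NK marker list gave −0.69 for Ehmt1, −0.76 for Wiz, −0.59 for Zfp644 (edgeR adjusted p = 0.03, 0.0196 and 0.068), −1.68 for Ehmt2 and −0.32 for EHMT1 (edgeR adjusted p = 0.00411), with the median gene at −0.77 in the mouse and −0.16 in NK92MI. The interaction for Wiz and WIZ was 0.50.

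Genes called in KO against WT numbered 1565 and were 0 under the study's thresholds by edgeR (4719 at an unadjusted p under 0.05, and 1495 by DESeq2 under the same thresholds), 8051 with NK scaling, 3087 by DESeq2 and 3222 with the replicate block. Leaving out 1 library gave 0 (without KO replicate 2 or 3, with 3208 and 3287 at an unadjusted p under 0.05) to 3530 (without WT replicate 2), with 99 without WT replicate 1 and 14 without WT replicate 3. In BIX against DMSO, 4692 genes were called and 1485 under the study's thresholds. The replicate block left Ehmt2 at −0.91 (edgeR adjusted p = 0.00374) and changed no call of a member. Correlations of deviations of same-numbered mouse libraries were 0.28, 0.35 and −0.19, and those of differently numbered libraries ranged from −0.44 to 0.28. These values do not settle whether the numbers are pairs. The labels name no pairs, so the block was kept as an alternative only. No paired analysis was possible in NK92MI because the control columns could not be linked to the numbered DMSO samples. Exact tests of 3 against 3 cannot go below 0.1, and counts per gene do not show where along Ehmt2 the reads fall. The causes of these changes were not tested.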
